A study of Mus musculus with 29 samples.

Results

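Blood of irradiated mice that bear the outcome label Live was compared with blood of sham-irradiated mice. The members are 20 of the 29 libraries of the series, 10 Live and 10 sham, chosen by their labels, and the 11484 of 50384 gene symbols whose mean was at least 50 over these 20 libraries. All animals were male mice of a genotype that the labels give as LJ, bled from the cheek or tail vein at day 120, with 1 library of total RNA from whole blood per animal. Live animals had received 11.35 Gy to the upper body, and sham animals had gone through the procedure with 0 Gy. The other 9 irradiated animals carry the outcome label Die and enter only where named. Sham animals carry the outcome label Live as well, so "Live" below always means irradiated. No batch or sequencing date is named, and nothing in the labels ties animals to a cage or litter.

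Blood monocytes come in a classical form, which leaves the marrow through the chemokine receptor Ccr2 and enters injured tissue, and a non-classical form, rich in Cx3cr1, which patrols the vessel wall. Both belong to the mononuclear phagocytes, which engulf particles, kill microbes with the reactive oxygen of NADPH oxidase and degrade what they take up in lysosomes. In the lung, radiation injury brings such cells in from the blood, and irradiation of the upper body also reaches part of the bone marrow.

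The values are normalised counts per gene, scaled by the authors for each library, and differences are on log2(normalised count + 0.5). Leukocyte, red cell, platelet, B cell, T cell, neutrophil and monocyte messages were all present. Ptprc, the pan-leukocyte antigen, had 13606, 17883 and 29049 in Live animals, against 18029, 27321 and 33368 in sham animals (lowest, median and highest; this order is kept below). The B cell gene Cd79a had 1158, 1879 and 2488 in Live animals, against 434, 1644 and 2186 in sham animals. The T cell gene Cd3e had 279, 595 and 746 in Live animals, against 46.5, 494 and 808 in sham animals. For none of these 3 markers did the difference pass the test, with adjusted p between 0.126 and 0.655. Approximate depth was 29.3 ± 6.20 M reads per Live library and 24.7 ± 3.48 M reads per sham library (SD, n = 10 each; permutation test, two-sided, adjusted p = 0.0948). Sham replicate 1 stood apart: 846 of the expressed genes were listed at 0 in it, against at most 206 in any other Live or sham library, and the 7S RNA genes held 2.73% of its values. Results are therefore also given without it for many genes and lists where a call changes. Leaving out other libraries changed the calls as well, often to fewer, and is given below as counts.

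In Live animals, 23 genes fell and 4 rose relative to sham among the 11484 tested (limma, Benjamini-Hochberg adjusted p under 0.05), which is 0.2% and 0.0348% of the genes, and 0.235% in all. Among those that fell were genes of monocytes and other myeloid cells: receptors that guide them (Cx3cr1, Ccr2), the oxidase subunit Cybb, the pore protein Mpeg1, the lectin receptor Clec4a3 and the coagulation factor subunit F13a1. The log2 changes of the 23 genes lay between -1.64 and -0.59. At an unadjusted p under 0.05 stood 1644 genes, or 14.3%, split into 821 lower and 823 higher. The median log2 change over all genes tested was 0.04, with quartiles of -0.20 and 0.31, and 45.9% of the genes lay below 0 and 54.1% above. For 138 genes (1.2%) at least 7 of the 10 Live animals lay below every sham animal, and for 61 genes (0.531%) above. Without sham replicate 1 the test called 390 genes (3.4%), 252 lower (2.19%) and 138 higher (1.2%), and all 27 were among them. Other exclusions lowered the number: 7 genes were called without sham replicate 6 or 7. Without sham replicate 4 or 5, or without Live replicate 9, 8 were called.

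**Figure D1:**
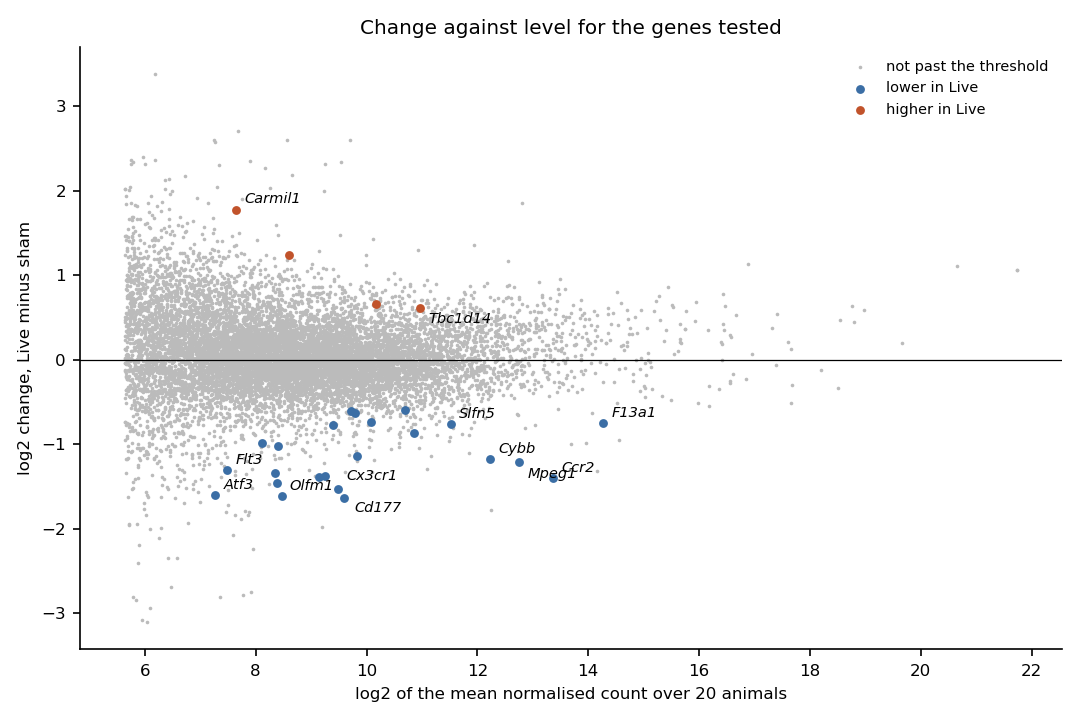
Each point is 1 of the 11484 genes, with the log2 of its mean normalised count over the 20 animals on the horizontal axis and its log2 change, Live minus sham, on the vertical axis. The 23 genes called lower and the 4 called higher are coloured, and 12 of the 27 are named; the called lower genes span log2 changes of -1.64 to -0.59.

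The libraries of the groups also differed in their make-up. Rn7s1 and Rn7s2, the genes of the 7S RNA that targets secreted proteins to the endoplasmic reticulum, took 27.4 ± 9.34% of the values in Live and 17.9 ± 6.57% in sham libraries (SD, n = 10 each; permutation test, two-sided, p = 0.0172, adjusted over 7 measures 0.0402), higher than the sham median in 8 of 10 Live animals. Mitochondrial transcripts took 8.07 ± 2.60% in Live and 5.13 ± 1.79% in sham libraries (adjusted permutation p = 0.0279), higher than the sham median in 9 of 10 Live animals. With the 7S share as a covariate, 0 genes passed, with a smallest adjusted p of 0.0705 and 1391 genes at an unadjusted p under 0.05. With the mitochondrial share as a covariate, chosen after seeing the data, 0 passed, with a smallest adjusted p of 0.134 and 952 genes at an unadjusted p under 0.05. With depth as a covariate 3 passed. When libraries were scaled to their total without 7S RNA, 0 passed, with a smallest adjusted p of 0.0532. Under that scaling the median of all genes moved to -0.14, against 0.04, and the genes at an unadjusted p under 0.05 were 1290 lower and 328 higher. All 27 genes kept their direction and an unadjusted p under 0.05 in each of these fits. Since the 27 were chosen by the same contrast on the same libraries, this is a description. The part of the library differences in the changes was not tested beyond these fits.

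**Figure D2:**
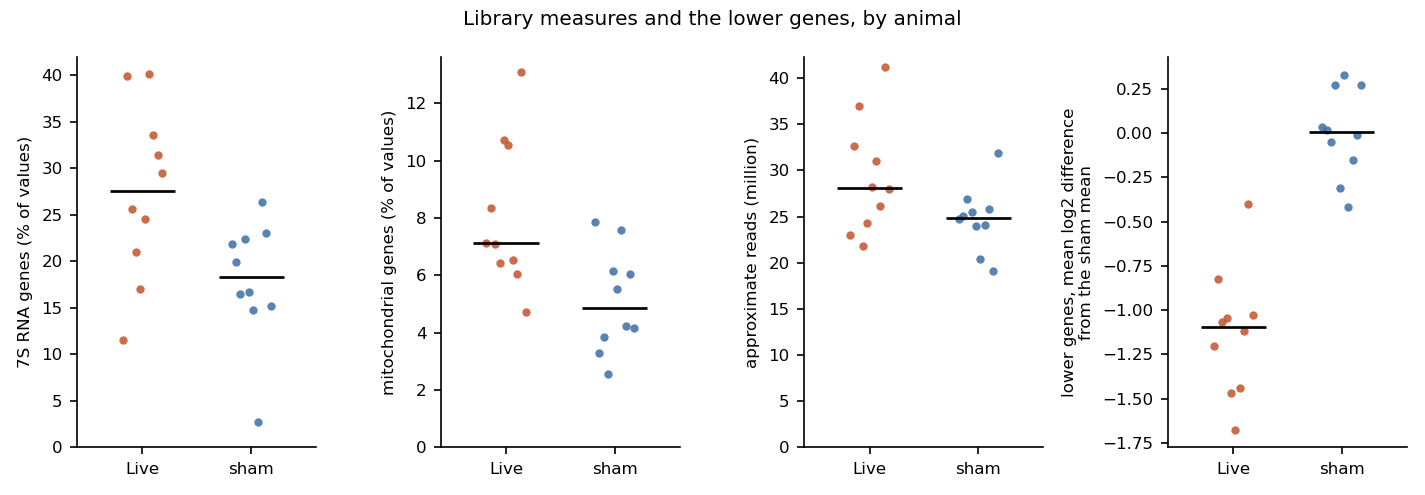
Each point is 1 animal, with Live animals left of sham animals. The panels show the share of 7S RNA genes in percent, the share of mitochondrial genes in percent, the approximate reads in M, and the mean log2 level of the 23 lower genes relative to the sham mean; sham replicate 1 has the lowest 7S share, 2.73%.

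Among the receptors that steer monocytes, Cx3cr1 (chromosome 9, 119901616 to 120069879), which binds fractalkine on vessel walls, had 193, 377 and 643 in Live animals, against 442, 1088 and 1810.2 in sham animals. Every Live animal lay below the sham median and 7 lay below every sham animal. The log2 change was -1.53 ± 0.24 (SE), a level 2.88-fold lower in Live animals (adjusted p = 0.011). Ccr2 (chromosome 9, 124101950 to 124113557), through which the ligand Ccl2 draws classical monocytes out of the marrow, had 2379, 5906 and 9566 in Live animals, against 7679, 14448 and 22820.2 in sham animals. The groups overlapped only through Live replicates 8, 13 and 17, and the log2 change was -1.40 ± 0.25 (SE, adjusted p = 0.0165). Over the list of chemokine receptor and adhesion genes these were the 2 called of 25 tested, against 0.2% of all genes called lower. The list's median was -0.16, against 0.04 for all genes. Without sham replicate 1 the list had 4 called, all lower, against 2.19% of all genes, and a median of -0.29. Itgam, the alpha chain of complement receptor 3, had -0.88 ± 0.30 (SE) with an adjusted p of 0.167, and -1.07 with an adjusted p of 0.0311 without sham replicate 1.

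In the phagocyte oxidase, Cybb (chromosome X, 9435252 to 9487771), the catalytic subunit, had 2021, 2834 and 4751 in Live animals, against 3849, 6657 and 8837 in sham animals. All Live animals but replicate 17 were below every sham animal, and the lowest sham animal was replicate 10. The log2 change was -1.18 ± 0.17 (SE), or 2.26-fold lower, with the smallest p of all genes tested (adjusted p = 0.00417). Ncf1, a cytosolic organiser of the complex, stood at -0.50 ± 0.16 (SE) on the log2 scale and did not pass (adjusted p = 0.146). Of the 7 oxidase genes tested, 1 was called, against 0.2% of all genes called lower. The list's median was -0.14, against 0.04 for all genes. It was -0.42 without sham replicate 1 and -0.34 with the 7S share as a covariate.

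Mpeg1 (chromosome 19, 12460779 to 12465283), which encodes the pore-forming perforin-2 of phagocytes, had 1992, 4359 and 7583 in Live animals, against 3814, 9497 and 14298 in sham animals. The groups overlapped more than for Cybb, with 4 Live animals below every sham animal, and the log2 change was -1.21 ± 0.23 (SE, adjusted p = 0.0321). Clec4a3 (chromosome 6, 122952515 to 122969875), a C-type lectin receptor of myeloid cells, had 333, 459 and 961 in Live animals, against 846, 1162 and 1606 in sham animals. Only Live replicates 7, 8 and 17 reached the sham range, and the log2 change was -1.14 ± 0.22 (SE, adjusted p = 0.033). F13a1 (chromosome 13, 36867178 to 37050244), the A subunit of coagulation factor XIII, which monocytes and platelets carry, had 11433, 14792 and 21321 in Live animals, against 18213, 24288 and 33672 in sham animals. Live replicate 17 was the sole Live animal inside the sham range, and the log2 change was -0.75 ± 0.14 (SE, adjusted p = 0.0288).

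Flt3 (chromosome 5, 147330741 to 147400489), the receptor tyrosine kinase of progenitors and dendritic cells, had 61.0, 98.3 and 199.96 in Live animals, against 195, 229.9 and 382 in sham animals. Again only Live replicate 17 reached the lowest sham animal, and the log2 change was -1.31 ± 0.22 (SE, adjusted p = 0.0124). Flt3 was the 1 called of 10 tested dendritic cell markers, whose median was -0.23. Of all genes 0.2% were called lower, and their median was 0.04. Cd177 (chromosome 7, 24743983 to 24760311), a surface glycoprotein of neutrophils, had 152, 334 and 908 in Live animals, against 536, 1158 and 1649 in sham animals. Live replicates 13 and 17 overlapped the sham range, and the log2 change was -1.64 ± 0.28 (SE), the largest among the called lower genes (adjusted p = 0.0124). It was the 1 called of 17 tested markers of mature neutrophils, whose median was -0.10, beside the same 0.2% and 0.04 for all genes. Without sham replicate 1 this list had 2 called lower, against 2.19% of all genes, and a median of -0.22. S100a8, the calprotectin subunit of neutrophils and classical monocytes, had 6952, 16017 and 24954 in Live animals, against 6776, 11968 and 26272 in sham animals, and its log2 change of 0.30 ± 0.24 (SE) did not pass (adjusted p = 0.609).

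**Figure D3:**
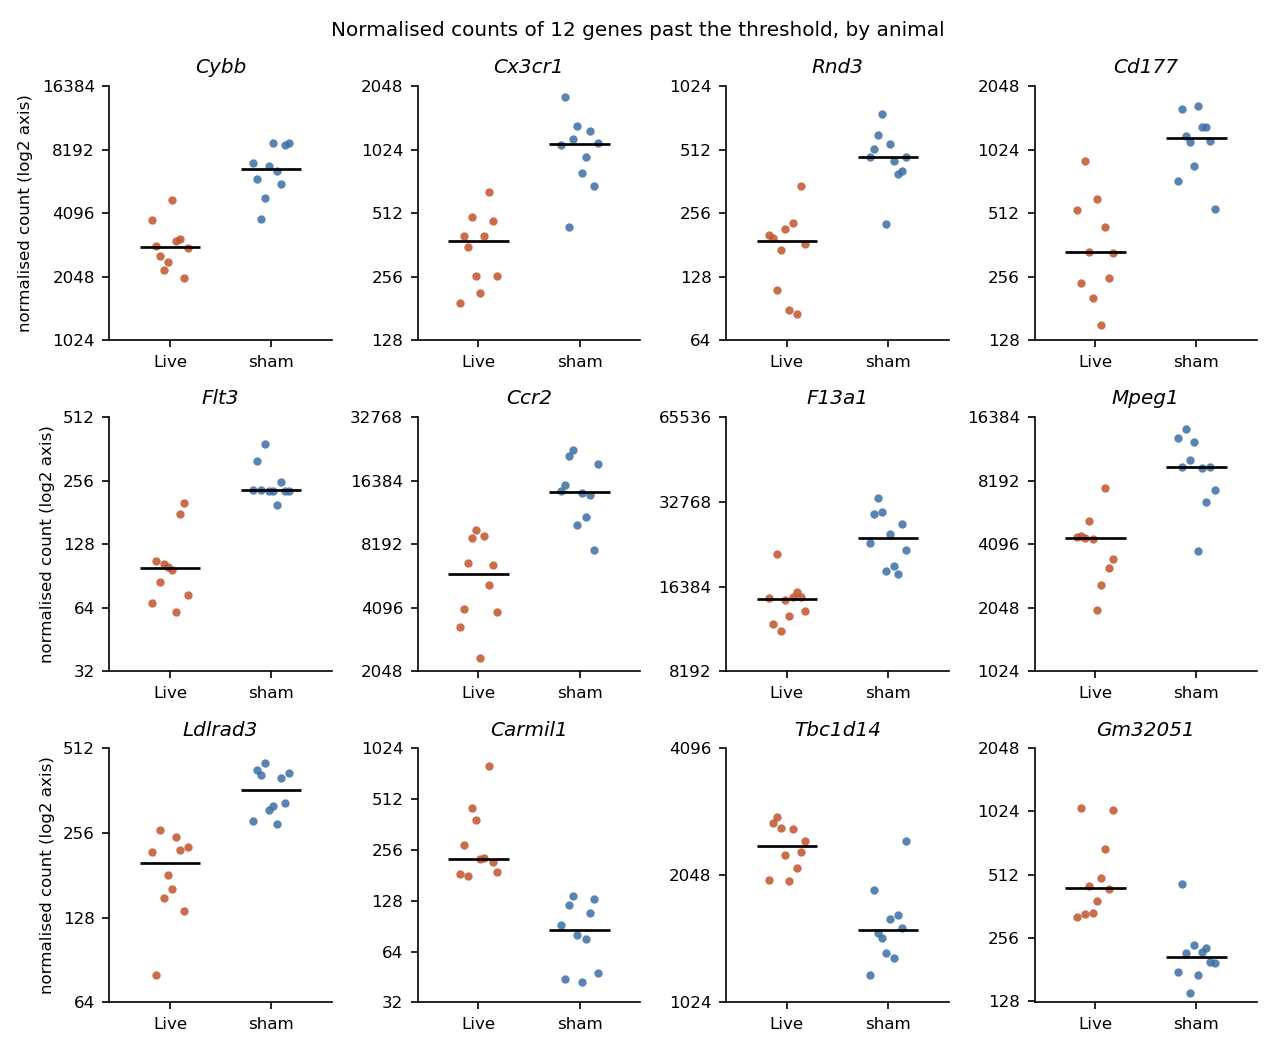
Normalised counts of 12 called genes per animal on a log2 axis, 1 panel per gene, with the 10 Live animals left of the 10 sham animals and bars at the group medians. In the panels of lower genes the point of Live replicate 17 often lies inside the sham range, as for Cybb (4751, against a lowest sham value of 3849).

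The called genes that follow were sorted by their roles after the calls were known, and the sorting carries no count or test. Those with a role in signalling or gene control come first. Il6st (chromosome 13, 112464070 to 112510086), which encodes gp130, the shared signalling chain of the interleukin 6 family, had 776, 1428 and 1873 in Live animals, against 1356, 2581 and 3295 in sham animals. The groups overlapped in 6 Live animals, and the log2 change was -0.86 ± 0.18 (SE, adjusted p = 0.0333). Atf3 (chromosome 1, 191170296 to 191218039), a transcription factor induced by cell stress, had 34.1, 66.4 and 191 in Live animals, against 105, 202 and 383 in sham animals. Live replicates 5 and 8 overlapped the sham range, and the log2 change was -1.60 ± 0.32 (SE, adjusted p = 0.033). Tfe3 (chromosome X, 7762560 to 7775202), a transcription factor of lysosome and autophagy genes, had 139, 201 and 312 in Live animals, against 254, 441 and 729.7 in sham animals. Its log2 change was -1.02 ± 0.21 (SE, adjusted p = 0.0383), with 7 Live animals below every sham animal. Prkx (chromosome X, 77761411 to 77796278), an X-linked kinase of the cyclic AMP family, had 509, 684 and 945 in Live animals, against 824, 1118 and 1186 in sham animals. Live replicates 1 and 17 overlapped the sham range, and the change was -0.63 ± 0.13 (SE, adjusted p = 0.033). Slfn5 (chromosome 11, 82951349 to 82964840), a Schlafen family gene that interferon induces, had 1520.5, 2090.2 and 3134 in Live animals, against 2510.3, 3738 and 4524 in sham animals. Live replicates 6, 13 and 17 overlapped the sham range, and the change was -0.77 ± 0.14 (SE, adjusted p = 0.0184). The type I interferon list had 0 called of 23 tested by limma, with 3 of 23 at an unadjusted p under 0.05. The shares over all genes were 0.235% and 14.3%. The list's median of 0.04 turned to -0.14 under the scaling without 7S RNA.

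Called genes with a role in the cytoskeleton are given next. Rnd3 (chromosome 2, 51130438 to 51149111), an atypical small GTPase that lowers actomyosin contraction, had 85.6, 189 and 344 in Live animals, against 228, 472 and 756 in sham animals. Live replicates 9 and 17 overlapped the sham range, and the log2 change was -1.46 ± 0.25 (SE, adjusted p = 0.0124). Iqgap2 (chromosome 13, 95627177 to 95891922), a scaffold that binds the GTPases Cdc42 and Rac1, had 869, 1333 and 1694 in Live animals, against 1549, 1917 and 2503 in sham animals, with a change of -0.59 ± 0.12 (SE, adjusted p = 0.0358). Crybg1 (chromosome 10, 43950636 to 44148853), which encodes an actin-binding protein with crystallin domains, had 461, 709.6 and 839 in Live animals, against 829, 1030.0 and 1147 in sham animals, with a change of -0.60 ± 0.12 (SE, adjusted p = 0.033). Both of these genes separated all Live animals but replicate 17 from all sham animals. Map7d1 (chromosome 4, 126232167 to 126256343), a relative of microtubule-associated proteins, had 291, 491 and 816 in Live animals, against 613, 852 and 1046 in sham animals, with a change of -0.77 ± 0.16 (SE, adjusted p = 0.0333), with Live replicate 6 alone inside the sham range. Carmil1 (chromosome 13, 24012344 to 24280795), a regulator of actin capping protein, went the other way, with 180.0, 227 and 798 in Live animals, against 42.3, 86.4 and 136 in sham animals. Every Live animal lay above every sham animal, which held for 1 of the 11484 genes (0.00871%), and the rise was 1.77 ± 0.30 (SE), or 3.42-fold (adjusted p = 0.0124).

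The remaining lower genes include a transporter, a membrane protein and a secreted protein. Ldlrad3 (chromosome 2, 101950203 to 102186385), a membrane protein with repeats of the LDL receptor type, had 79.9, 200.3 and 261 in Live animals, against 276, 363 and 454 in sham animals. It was the 1 gene of 11484 (0.00871%) with every Live animal below every sham animal, and the log2 change was -0.99 ± 0.20 (SE, adjusted p = 0.033). Abca9 (chromosome 11, 110100749 to 110168196), an ABC transporter of the A subfamily, had 97.8, 313 and 657 in Live animals, against 439, 768 and 1466 in sham animals. Live replicates 13 and 17 overlapped the sham range, and the log2 change was -1.38 ± 0.27 (SE, adjusted p = 0.033). Its chromosomal neighbour Abca6, named after its values were seen, had -0.93 ± 0.36 (SE) and did not pass (adjusted p = 0.225). Olfm1 (chromosome 2, 28192992 to 28230736), a secreted olfactomedin glycoprotein, had 68.0, 148 and 560.5 in Live animals, against 196, 523 and 977 in sham animals, with a change of -1.62 ± 0.33 (SE, adjusted p = 0.033). For Olfm1 alone among the 23 lower genes, a Live animal, replicate 17, lay above the sham median.

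The p200 family holds interferon-inducible DNA sensors and regulators that lie together on chromosome 1, and Ifi207 and Ifi211 fell. Ifi207 (chromosome 1, 173723427 to 173741747) had 109, 315 and 608 in Live animals, against 452, 833 and 1089.9 in sham animals, with a change of -1.39 ± 0.29 (SE, adjusted p = 0.0423). Live replicates 7, 8 and 17 lay within its sham range. Ifi211 (chromosome 1, 173896345 to 173913046) had 58.8, 181 and 407 in Live animals, against 291, 467 and 529.6 in sham animals, with a change of -1.34 ± 0.29 (SE, adjusted p = 0.0462), with Live replicates 7, 13 and 17 inside the sham range. The relatives were looked up after these values were seen, and their changes differed: Ifi204 had -1.20 ± 0.30 (SE) and did not pass (adjusted p = 0.0864, against 0.0385 without sham replicate 1), while Aim2, Ifi203, Ifi208, Ifi213 and Ifi214 had log2 changes between -0.04 and 0.03. Several of these genes are close copies of each other, so reads could be split between them and the values of single members are uncertain. Ifi211 also overlaps Mndal on the same strand.

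Tbc1d14 and Gm32051 also rose. Tbc1d14 (chromosome 5, 36490604 to 36593276), a Rab-binding protein that regulates autophagy, had 1988, 2399 and 2807 in Live animals, against 1189, 1518 and 2462 in sham animals. The highest sham animal, replicate 10, lay above 5 Live animals, and the rise was 0.61 ± 0.12 (SE), or 1.53-fold (adjusted p = 0.033). The model gene Gm32051 (chromosome 5, 105409367 to 105415670), named after its values were seen, had 323, 444 and 1066 in Live animals, against 140.1, 207 and 463 in sham animals, with a rise of 1.23 ± 0.25 (SE, adjusted p = 0.033). Among genes with a change above 0, the next in order of p were Csgalnact1, an enzyme of chondroitin sulphate synthesis, Dtnb, a dystrobrevin, and Elf2, an ETS transcription factor. Their log2 changes of 0.73 ± 0.16 (SE), 0.79 ± 0.18 (SE) and 0.88 ± 0.20 (SE) did not pass (adjusted p between 0.0576 and 0.0593), and passed without sham replicate 1 (adjusted p between 0.0241 and 0.0304).

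Several called genes share their position with an annotated gene on the opposite strand, among them Cx3cr1, Flt3, Slfn5, F13a1, Crybg1, Ldlrad3, Iqgap2, Atf3 and Carmil1. The annotated span of Cx3cr1 also overlaps the protein-coding genes Gorasp1, Csrnp1 and Xirp1 on the same strand, which strand does not separate. The library kit keeps strand, per the labels' protocols, but whether strand was used in quantification is not given in the sources used here. For Iqgap2 the partner is the platelet gene F2rl2, whose own log2 change of 0.49 had the other sign and did not pass.

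The promoters of the genes with the smallest p are shown because these genes fell in most of the same Live animals, and the letters show what their start sites hold. Each runs from 250 bases before to 50 after the RefSeq start on GRCm38.p6, in the direction of the gene, in lower case. Capitals mark GAGGAA, the core bound by the myeloid factor PU.1, and TATAAA, the TATA box, on either strand. The sequences of Cybb (chrX:9469275-9469574, minus strand), Cx3cr1 (chr9:120068247-120068546, minus strand), Rnd3 (chr2:51149062-51149361, minus strand) and Cd177 (chr7:24760262-24760561, minus strand) follow.
Cybb: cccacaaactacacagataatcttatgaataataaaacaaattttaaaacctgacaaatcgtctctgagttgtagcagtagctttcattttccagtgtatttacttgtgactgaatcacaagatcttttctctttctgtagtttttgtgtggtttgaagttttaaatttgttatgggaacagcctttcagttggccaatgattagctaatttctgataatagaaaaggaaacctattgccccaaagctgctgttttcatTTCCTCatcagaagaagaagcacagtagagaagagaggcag
Cx3cr1: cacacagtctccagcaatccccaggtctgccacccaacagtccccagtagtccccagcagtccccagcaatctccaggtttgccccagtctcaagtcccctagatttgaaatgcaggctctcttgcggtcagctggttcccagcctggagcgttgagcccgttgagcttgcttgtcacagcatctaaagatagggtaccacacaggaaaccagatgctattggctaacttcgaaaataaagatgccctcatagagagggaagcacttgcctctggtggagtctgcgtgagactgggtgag
Rnd3: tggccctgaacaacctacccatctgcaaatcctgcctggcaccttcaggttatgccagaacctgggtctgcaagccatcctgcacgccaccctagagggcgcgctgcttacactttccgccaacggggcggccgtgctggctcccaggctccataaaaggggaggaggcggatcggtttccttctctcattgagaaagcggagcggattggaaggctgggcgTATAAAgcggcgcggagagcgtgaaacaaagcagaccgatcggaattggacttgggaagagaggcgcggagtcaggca
Cd177: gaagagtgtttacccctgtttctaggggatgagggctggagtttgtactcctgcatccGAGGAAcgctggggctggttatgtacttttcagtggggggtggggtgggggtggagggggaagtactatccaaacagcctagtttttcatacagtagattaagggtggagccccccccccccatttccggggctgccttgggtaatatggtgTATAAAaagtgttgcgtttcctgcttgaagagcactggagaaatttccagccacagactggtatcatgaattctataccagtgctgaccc

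The Cybb window held GAGGAA on its opposite strand just after the start, and the Rnd3 window held a TATA box 28 bases before the start. The Cd177 window held both, and those of Cx3cr1 and Flt3 held none of the motifs searched. Of the 23 lower genes 21 had a promoter in the table. GAGGAA stood in 7 of 21 (33.3%), against 2381 of 8776 promoters of all genes tested (27.1%). TATAAA stood in 2 of 21 (9.52%), against 629 (7.17%), and TTGCNNAA, bound by C/EBP factors, in 0 of 21, against 731 (8.33%). Both strands were searched, and no 2 of these motifs overlap in the printed windows. A match is a string of letters and not evidence of binding.

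**Figure D4:**
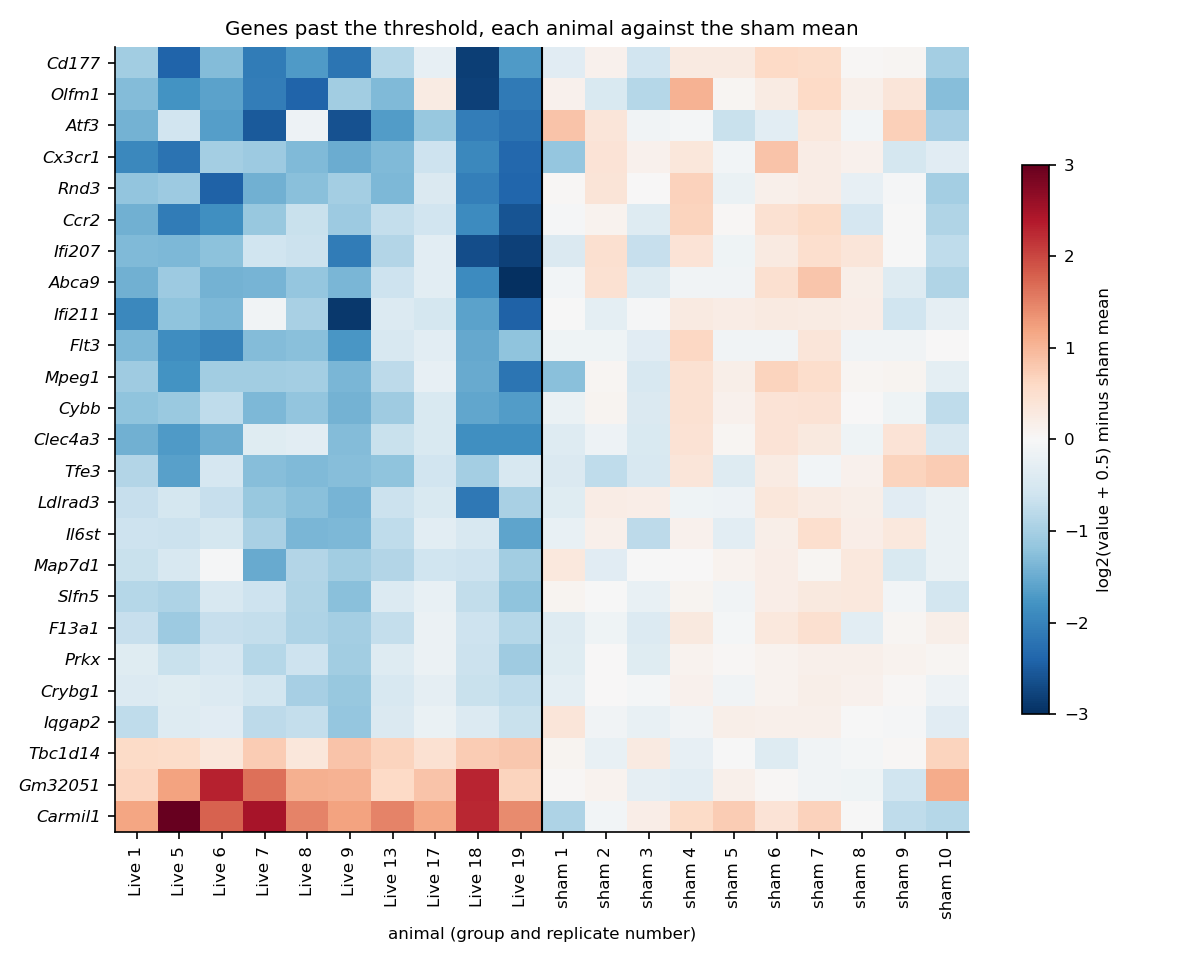
Rows are 25 of the 27 called genes and columns the 10 Live animals, left, and the 10 sham animals, right. Colour is the log2 level relative to the sham mean, clipped at -3 and 3; the column of Live replicate 17 is the palest of the Live columns for the lower genes, with a mean of -0.40 over all 23.

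The animals differed in how far they moved. Of the 23 lower genes, Live animals had between 4 and 22 below every sham animal, with a median of 19. Live replicate 17 had 4, and the other Live animals had 16 to 22. Replicate 17 was the highest Live animal in 17 of the 23 genes, and replicate 19 the lowest in 10. The mean log2 level of the 23 genes, relative to the sham mean, lay between -1.67 and -0.40 in Live animals and between -0.42 and 0.33 in sham animals. Live replicate 17 lay at -0.40 and sham replicate 10 at -0.42, so these animals met at the border, and sham replicate 10 was the lowest sham animal in 11 of the 23 genes. Since the genes were chosen by this contrast, the separation is a description. Leaving out Live replicate 17 raised the number of called genes to 182, and leaving out sham replicate 10 raised it to 293.

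The irradiated animals with the label Die are set beside these values only for the same genes. Cybb had 3483, 4119 and 7114 normalised counts in Die animals (n = 9), against 2021, 2834 and 4751 in Live animals. The difference, Die minus Live, was 0.67 ± 0.17 (SE) on the log2 scale and did not pass (adjusted p = 0.238). Ccr2 had 5547, 7899 and 15248 in Die animals, against 2379, 5906 and 9566 in Live animals, a difference of 0.68 ± 0.25 (SE, adjusted p = 0.264). For F13a1 the difference was 0.17 ± 0.15 (SE, adjusted p = 0.625). Over the 11484 genes 0 passed for Die minus Live (0.0%; limma, 29 libraries), with 1587 genes (13.8%) at an unadjusted p under 0.05, and 14 of the 27 genes had an unadjusted p under 0.05. The 27 genes were chosen on the Live libraries that this difference also uses, so the 14 are a description. The adjusted p of the 27 genes lay between 0.238 and 0.674. A p above the threshold does not show that the irradiated groups had the same levels. For Die minus sham 0 genes passed as well (0.0%), with 1415 (12.3%) at an unadjusted p under 0.05. The called lower genes had a mean log2 level of -1.16, -0.68 and -0.02 in Die animals, relative to the sham mean. In Live animals it was -1.67, -1.09 and -0.40. Die animals had 0 to 17 of these genes below every sham animal, with a median of 12. Die minus sham was -0.50 ± 0.17 (SE) for Cybb and -0.72 ± 0.25 (SE) for Ccr2 (adjusted p = 0.315 for both). It was -0.57 ± 0.15 (SE, adjusted p = 0.274) for F13a1. As above, this is a description. Die replicates 2 and 14 had many expressed genes at 0, and without them and sham replicate 1 again 0 passed for Die minus Live, with 1157 genes (10.1%) at an unadjusted p under 0.05. Live minus sham and Die minus sham share the sham libraries, so their values are not independent.

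Of the 762 symbols of 41 gene lists, 761 were found and 659 were tested, and 10 lists held a called gene. Classical monocyte markers were all below 0 (13 of 13), with 3 called lower, 10 at an unadjusted p under 0.05 and a median of -0.85, against 0.2% called lower, 7.15% and 0.04 over all genes. The summed level of the list was 68694 to 158453 in Live animals and 99816 to 259159 in sham animals. Vcan, a matrix proteoglycan of classical monocytes, had 646, 1550.0 and 7261 in Live animals, against 2992, 7175 and 14911 in sham animals, and its change of -1.78 ± 0.39 (SE) missed the threshold (adjusted p = 0.0562; 0.0183 without sham replicate 1). The genes shared by mononuclear phagocytes were also all below 0 (20 of 20), with 2 called, 17 at an unadjusted p under 0.05 and a median of -0.80. Their summed level was 23563 to 48680.0 in Live animals and 32606 to 75624 in sham animals. Csf1r, the receptor for the growth factor of monocytes, had 694, 1066 and 2620.4 in Live animals, against 798, 3434 and 5063 in sham animals, with a change of -1.14 ± 0.29 (SE) that missed the threshold (adjusted p = 0.0864; 0.00777 without sham replicate 1). In whole blood a smaller share of monocytes and less of these messages per monocyte cannot be told apart.

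**Figure D5:**
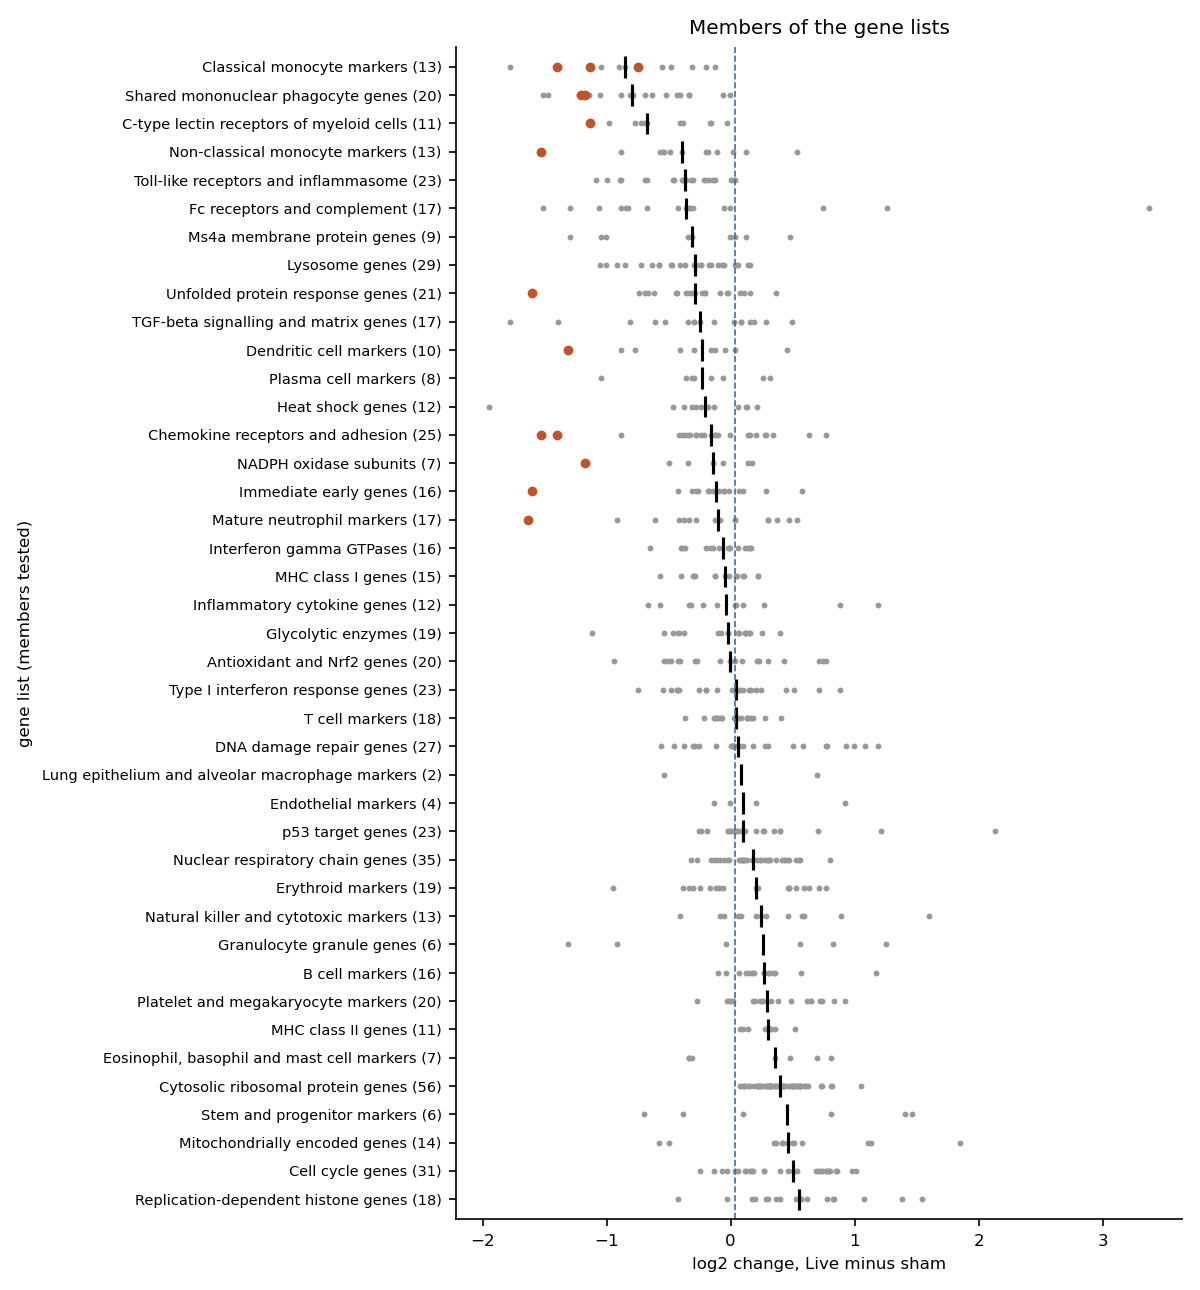
Each point is a gene of the named list at its log2 change, Live minus sham; called genes are orange, black ticks are list medians and the dashed line is the median of all genes, 0.04. Classical monocyte markers (median -0.85) and shared phagocyte genes (median -0.80) lie wholly at or below 0.

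For the lists that follow, 45.9% of all genes lay below 0, 0.2% were called lower and 7.15% were lower at an unadjusted p under 0.05. Non-classical monocyte markers had 1 called of 13, Cx3cr1, and a median of -0.40. Adgre4, an adhesion receptor of these cells, had 130.5, 388 and 619 in Live animals, against 441, 679.8 and 800.2 in sham animals, with a change of -0.88 ± 0.21 (SE) that did not pass (adjusted p = 0.0827), but passed without sham replicate 1 (adjusted p = 0.0367). C-type lectin receptors of myeloid cells had 11 of 11 below 0, 1 called and a median of -0.67. Clec10a, a member of this list, reached the level limit through sham animals alone. Clec5a and Clec12a, both myeloid lectins, had -0.98 ± 0.25 (SE) and -0.67 ± 0.18 (SE) and did not pass (adjusted p = 0.0864 and 0.0898), but passed without sham replicate 1 (adjusted p = 0.0381 and 0.0381). Toll-like receptor and inflammasome genes had 20 of 23 below 0, 0 called (5 at an unadjusted p under 0.05) and a median of -0.37. Tlr2, which senses bacterial lipoproteins, had 150.2, 331 and 579 in Live animals, against 349, 654 and 838 in sham animals, with a change of -0.88 ± 0.21 (SE, adjusted p = 0.0827, and 0.0208 without sham replicate 1). For Fc receptor and complement genes no count or median is given, since some of the 17 tested members passed the level limit through a few Live animals alone. C3, the central complement component, had -1.30 ± 0.32 (SE, adjusted p = 0.0864, and 0.0412 without sham replicate 1). Lysosome genes had 24 of 29 below 0, 0 called (12 lower at an unadjusted p under 0.05) and a median of -0.29. The lysosomal protease Ctss had 3949, 5158 and 7758 in Live animals, against 5742, 8310.5 and 11328 in sham animals, with a change of -0.64 ± 0.15 (SE, adjusted p = 0.0779, and 0.0267 without sham replicate 1). Cd68, a lysosomal glycoprotein of phagocytes, had -1.06 ± 0.26 (SE, adjusted p = 0.0859, and 0.0238 without sham replicate 1). The medians of the lists of non-classical markers, lectin receptors, Toll-like receptors and lysosome genes stayed below 0 under the 3 other scalings and with the 7S share, the mitochondrial share or depth as a covariate. That of the non-classical markers depended on the covariate, with -0.07 with the mitochondrial share and -0.81 with depth.

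Without sham replicate 1 the same lists held more calls, all lower. They were 8 of 13 classical monocyte markers, 13 of 20 shared phagocyte genes, 3 of 13 non-classical markers, 4 of 11 lectin receptors, 5 of 23 Toll-like receptor and inflammasome genes and 5 of 29 lysosome genes. The background for these counts is 2.19%.

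Lists of stress genes held few calls, and none had a median above 0, with that of the antioxidant list at -0.004. Of all genes 45.9% lay below 0, 0.2% were called lower and 0.0348% higher. At an unadjusted p under 0.05, 7.15% were lower and 7.17% higher. Without sham replicate 1, 2.19% of all genes were called lower and 1.2% higher. The unfolded protein response list had 17 of 21 below 0, 1 called, Atf3, and a median of -0.29 (3 called without sham replicate 1). Hspa5, the main chaperone of the endoplasmic reticulum, had 1479, 2114 and 3410.4 in Live animals, against 1832, 3515 and 4865 in sham animals, with a change of -0.69 ± 0.18 (SE, adjusted p = 0.0864; 0.0154 without sham replicate 1). Immediate early genes had 1 called of 16, again Atf3, and a median of -0.12. Without sham replicate 1 they had 2 called and a median of -0.24, and the median was -0.45 with the 7S share and -0.02 with the mitochondrial share as a covariate. Heat shock genes had 0 called of 12 (2 lower at an unadjusted p under 0.05), with a median of -0.21 (-0.38 under the scaling without 7S RNA and -0.09 with the 7S share). Antioxidant and Nrf2 genes had 10 above and 10 below 0 and 0 called (4 higher and 5 lower at an unadjusted p under 0.05), and without sham replicate 1 had 1 called higher and 2 lower.

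The medians of several lists of other blood cells lay above 0, with no gene called. Over all genes 54.1% lay above 0, and 7.17% were higher at an unadjusted p under 0.05. Without sham replicate 1, 1.2% of all genes were called higher. Platelet genes had 16 of 20 above 0, 8 higher at an unadjusted p under 0.05, a median of 0.29 and a summed level of 138578 to 263574 in Live animals and 105656 to 321150.0 in sham animals. Pf4, the platelet factor 4 chemokine, had 8227, 12670.3 and 22654 in Live animals, against 4609, 6957 and 20041 in sham animals, and its change of 0.83 ± 0.24 (SE) did not pass (adjusted p = 0.103). Gng11, a G protein subunit of platelets, had 0.92 ± 0.24 (SE, adjusted p = 0.0896; 0.0477 without sham replicate 1, where 3 of 20 platelet genes passed). B cell markers had 14 of 16 above 0, 5 higher at an unadjusted p under 0.05 and a median of 0.27, and MHC class II genes had 11 of 11 above 0 and a median of 0.30, with 1 called higher without sham replicate 1. H2-Ob, a modulator of peptide loading in B cells, had 2312, 2718 and 3293 in Live animals, against 1297, 1976 and 2530.1 in sham animals, with a change of 0.52 ± 0.13 (SE) that did not pass (adjusted p = 0.0827, and 0.0391 without sham replicate 1). Cytotoxic and natural killer markers had a median of 0.25, and T cell markers had one of 0.04 that turned to -0.13 under the scaling without 7S RNA. Under that scaling the median was 0.12 for platelet genes, 0.07 for natural killer markers, 0.12 for the class II genes and 0.09 for the B cell list, against -0.14 for all genes. With the 7S share as a covariate the platelet median was 0.11. Hbb-bs, the adult beta globin of this table, had 153751, 383863 and 848009 in Live animals, against 136013, 279158 and 649013 in sham animals, a level that globin removal also sets, and its change of 0.47 ± 0.36 (SE) did not pass (adjusted p = 0.587).

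Ribosomal protein genes were all above 0 (56 of 56), with 0 called (1 without sham replicate 1), 25 at an unadjusted p under 0.05 and a median of 0.40. That median was 0.22 under the scaling without 7S RNA and 0.06 with the 7S share as a covariate. Of all genes 54.1% lay above 0, and 7.17% were higher at an unadjusted p under 0.05. The share called higher without sham replicate 1 was 1.2%. Rps20, of the small subunit, had 3087, 4304 and 6000.4 in Live animals, against 2154, 2869 and 4079 in sham animals, with a change of 0.56 ± 0.14 (SE, adjusted p = 0.0864, and 0.0304 without sham replicate 1). Mitochondrially encoded genes had 12 of 14 above 0, 0 called (7 higher at an unadjusted p under 0.05) and a median of 0.46. Without sham replicate 1 they had 2 called higher, and the median was 0.77 with the 7S share and 0.21 with the mitochondrial share as a covariate. Cell cycle genes had 27 of 31 above 0, 0 called (3 higher without sham replicate 1; 10 higher at an unadjusted p under 0.05) and a median of 0.50 (0.33 to 0.50 under the other scalings and covariates). Ect2, needed for cytokinesis, had 300.4, 656 and 1110.2 in Live animals, against 213, 321 and 766 in sham animals, with a change of 0.85 ± 0.28 (SE, adjusted p = 0.155; 0.0488 without sham replicate 1). Replication-dependent histone genes had a median of 0.55 that turned to -0.14 with the 7S share as a covariate.

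In the fit of all 20 libraries no p53 target or DNA repair gene of the lists passed at day 120. Among all genes 0.235% passed, and 7.17% were higher and 7.15% lower at an unadjusted p under 0.05. Without sham replicate 1, 1.2% of all genes were called higher. The p53 target list had 0 called of 23 (3 higher at an unadjusted p under 0.05) and a median of 0.10, which turned to -0.08 under the scaling without 7S RNA. Bbc3, which encodes the cell death protein PUMA, had 41.4, 122 and 303 in Live animals, against 0, 37.7 and 93.1 in sham animals. Its log2 change of 2.13 ± 0.68 (SE) did not pass (adjusted p = 0.141). It was 1.49 and passed without sham replicate 1 (adjusted p = 0.0358), the library with the 0. Bbc3 reached the level limit through Live animals alone, with a mean of 131, against 41.9 in sham animals. Its change, its call without sham replicate 1 and the list counts that hold it are therefore a description. Mdm2, the ubiquitin ligase that restrains p53, had 806, 1074 and 1636 in Live animals, against 827, 1147 and 1313 in sham animals, with a change of -0.00 ± 0.14 (SE) whose sign turned under several settings (adjusted p = 0.993). Cdkn1a, the p53-induced cell cycle inhibitor p21, lay under the level limit, with 3.65, 14.1 and 118 in Live animals, against 0, 6.98 and 26.6 in sham animals, 3 of which were at 0. DNA repair genes had 0 called of 27 (2 higher without sham replicate 1; 4 higher and 2 lower at an unadjusted p under 0.05) and a median of 0.06, which was -0.11 under the scaling without 7S RNA. Brca2, a mediator of repair by recombination, had 265, 582 and 874 in Live animals, against 141, 226 and 1007 in sham animals, with a change of 0.997 ± 0.29 (SE, adjusted p = 0.102; 0.00777 without sham replicate 1).

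Many markers of tissue outside the blood lay under the level limit. Of 12 genes of lung epithelium and alveolar macrophages 2 had a mean of at least 50. Sftpc, Sftpa1 and Scgb1a1, which define alveolar and airway epithelium, were at 0 in all Live and sham libraries. Other members had low means: Epcam had 35.8 in Live and 44.1 in sham animals, Ager 16.4 and 22.4, and Marco 11.1 and 0. Of 10 endothelial markers 4 were tested and 0 passed (0 at an unadjusted p under 0.05). Of 11 stem and progenitor markers 6 were tested and 0 passed, also with 0 at an unadjusted p under 0.05.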

How the data were processed

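Total RNA of whole blood was sequenced in 29 mice, and the 10 Live and 10 sham libraries were compared. The deposited signal values are estimated counts per gene symbol that the authors normalised for each library, with a median ratio of 1.02 to the gene's geometric mean in all libraries. Tools listed in the submitters' processing notes are kallisto 0.44.0, DESeq2, sleuth and bcl2fastq, with GRCm38 as the build; what each did is not given in the sources used here. Read counts could not be recovered, since few values were whole multiples of 1 read within 0.01, so no count test was run.

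Genes with a mean of at least 50 were tested with limma 3.58.1 in R 4.3.3, with a trend, on log2(value + 0.5), Live minus sham, two-sided, with Benjamini-Hochberg adjustment over 11484 genes and 0.05 as the threshold. Die minus Live and Die minus sham came from a fit of all 29 libraries on the same genes. SE is limma's standard error, on a scale that understates the change of low genes. Library measures were compared by permutation tests with 100000 resamples in Python 3.11.15 with scipy 1.17.1. The trimmed mean of M values (TMM) was computed directly for 1 alternative scaling. Gene positions were taken from GENCODE M21 (GRCm38), which holds 49678 of the 50384 symbols, and promoters are from RefSeq on GRCm38.p6.

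Named were up to 15 called genes per direction with the smallest p, up to 5 more with the largest change, fill-ins up to 6 per direction, up to 3 members per list, and Cdkn1a, Mdm2 and Pf4. Some genes that the rule allows are not reported here. The comparison, the members and the lists were chosen with earlier results of these data known, and no p is given over a list. Some list members reached the level limit only through the group where they were higher. Examples are Bbc3, Ccnb1 and Fasl in Live animals and Clec10a and Hspa1a in sham animals. List counts that hold such members are a description. The labels do not say whether animals of a group were housed or bled apart, so p-values measure the spread between these samples. On simulated data with 200 of 11484 genes changed, the limma step for Live minus sham recovered 47.5% of the genes at a log2 change of 1 (4.04% of the calls wrong) and 83.5% at 2 (8.24% wrong), and called 0 genes where none was changed. The simulated noise was normal and independent between genes, with no outlying library and no difference in library make-up. These rates therefore check the code and are not error rates for the real libraries. Alternatives covered the pseudocount, the level limit, the scaling, library covariates, array weights, a rank test, a replicate block and leaving out each library.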

Additional observations from a re-analysis of the deposited data

Results flagged for a closer look

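Single animals stood far from their group in 10 of 96 groups of 10 values examined, where chance gives about 1 in 20. The gap to the nearest animal, divided by the group's range, was above 0.466 in each. On the scale log2(value + 0.5), F13a1 in Live replicate 17 was 14.38, with the next Live animal at 13.94, and this was the Live animal whose lower genes lay nearest to sham. Abca6 in Live replicate 19 was 4.67, with the next at 6.44, and Ifi205 in Live replicate 5 was 9.003, with the next at 7.36. Among sham animals, replicate 1 was highest for Ifi209 at 12.72 (next 12.10) and for Ifi213 at 11.07 (next 10.22). Sham replicate 10 was highest for Elf2 at 12.997 (next 12.26) and for Gm32051 at 8.86 (next 7.89). Sham replicate 1 also had a 7S RNA share of 2.73%, with the next sham library at 14.7%, and 846 expressed genes at 0, with the next sham library at 189. Live replicate 5 had 206 expressed genes at 0, with the next Live library at 112.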

How the results depend on the processing

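The number of genes called for Live minus sham was 27. It was 27 with a pseudocount of 1, TMM scaling or a robust variance, 28 with a pseudocount of 5, 24 with a minimum mean of 10 and 30 by the rank-sum test. It was 13 with a minimum mean of 1, 7 with no filter, 42 with a minimum mean of 200, 42 (21 of the 27 among them) with all 29 libraries in the fit, and 51 with quantile normalisation. It was 0 under the scaling to the total without 7S RNA (smallest adjusted p 0.0532), 0 with the 7S share in the model (0.0705), 0 with the mitochondrial share in the model (0.134), which was added after seeing the data, and 3 with depth in the model (0.0380). With array weights it was 1328, of which 50.9% were lower, against 85.2% of the 27. Without 1 library at a time it lay between 7 and 390. It was 390 without sham replicate 1, 293 without sham 10, 182 without Live 17 and 78 without Live 6, and 17 or fewer without Live 7, 8, 9, 18 or 19 or sham 2, 4, 5, 6, 7 or 8. In every setting the tested members of the 27 kept their direction and an unadjusted p under 0.05, with 0.69 to 1.40 times the main log2 change. The 27 were chosen by this contrast on libraries that these fits share, so this too is a description. The causes of these shifts were not tested.

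The 6 replicate numbers that Live and sham share gave no sign of pairing. Deviations of same-numbered animals correlated between -0.158 and 0.033, and 0 of 6 correlated best with their own number. With 6 numbers this cannot exclude pairing. With a replicate block on these 12 libraries 0 genes passed (smallest adjusted p 0.146; 884 at an unadjusted p under 0.05), and with no block on the same 12 libraries 6 passed.

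Mdm2, at -0.00 in the fit reported, turned to 0.000457 with TMM scaling, 0.0150 with quantile normalisation, 0.13 with the 7S share, 0.0762 with depth, and 0.26 on the 12 libraries with and without the block, and lay between -0.0628 and 0.0506 without 1 library. Of the 41 list medians, 6 values under alternatives moved by more than the sham spread. Depth differs between genes, and changes of genes under a mean of 50 were not tested.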

Other observations

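The complement genes C1qa, C1qb and C1qc, which encode the chains of the C1q recognition protein made by macrophages, were looked at after their values were seen. C1qa had 142, 879 and 312 normalised counts in Live replicates 1, 5 and 18, and at most 33.9 in the other 7 Live animals, against at most 18.2 in sham animals. C1qb had 98.1, 1845 and 380 in the same 3 Live animals, and at most 28.5 in the other 7, against at most 51.8 in sham animals. C1qc had 102, 638 and 473 in these 3, and at most 47.2 in the other 7, against at most 26.0 in sham animals. In Die animals the highest values were 23.9, 43.8 and 27.5 for C1qa, C1qb and C1qc. The 3 genes thus stood high together in the same 3 Live animals, and they passed the level limit through these animals alone. They were part of the fit of all genes tested, but for this reason no difference between the groups is given for them.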
